A study of Mus musculus with 4 samples.

Results

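Genes of the cellular response to low oxygen and of glycolysis were followed in E14, a pluripotent mouse embryonic stem cell line, after knockdown of the endogenous retrovirus MERVL. The set was a fixed list of 34 gene symbols, and all 34 were found among the 43496 Ensembl genes of the count table. It was chosen by gene function, not by measured values, although earlier results of these data were known when it was proposed. Of the 34 genes, 33 passed the filter on low counts. Adm, the vasodilator peptide adrenomedullin, did not: its estimated counts were 3 and 6 with random shRNA and 2 and 1 with MERVL shRNA. Pairs of values are given with replicate 1 first throughout. CPM are estimated counts scaled to a common library total by the TMM method.

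The study compared 2 libraries of cells that had received a random shRNA, labelled wild type, with 2 libraries of cells that had received an shRNA against MERVL (MuERVL in the protocol), labelled MERVL knocked down. In both groups the strain was given as 12910la, and cells grew on gelatin in serum and LIF. Cells were transfected with 1000 ng of pSuper puro plasmid, and puromycin at 1 µg/ml was added 24 h later and kept for 4 days. The labels name no oxygen level and no clone. Nothing in them tells whether replicates came from separate cultures, and p-values thus reflect only how these samples vary, which may be technical.

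When oxygen is plentiful, the prolyl hydroxylases encoded by the Egln genes mark HIF alpha proteins, which VHL then directs to degradation. When oxygen is low, HIF alpha pairs with ARNT, binds a short DNA core that reads ACGTG or GCGTG, and raises transcription of genes for glucose uptake, glycolysis, lactate export, mitophagy and blood vessel growth. Several targets, Egln3 among them, restrain the pathway itself, and mouse embryonic stem cells carry out much glycolysis even in ordinary air.

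Libraries held 11628887 to 16067854 estimated counts, and random shRNA replicate 2 was the shallowest. Random shRNA replicate 1 stood apart from the other libraries across the 16353 features tested: its Pearson r on log2(CPM + 1) was 0.963 to 0.972 with each of them, against 0.985 to 0.995 among the other libraries, where features are not independent replicates. Summed over its copies, MERVL had 4661 and 1431 CPM with random shRNA and 1161 and 572.3 CPM with MERVL shRNA. All 8 markers of the 2-cell-like state were highest in random shRNA replicate 1, and their sum ran 1454, 414.7, 308.5 and 173 CPM in the same order. The 10 embryonic stem cell markers were present in all libraries, with sums of 7843, 8903, 9271 and 10010 CPM. Although the sum was lower in random shRNA replicate 1 than in replicate 2, 6 of the 10 were higher in replicate 1 and 4 in replicate 2. Of 8 fibroblast markers, Col3a1, Dcn, Lum and Postn were at 0 in all libraries, and the list summed to 31.0, 41.4, 18.5 and 15.3 CPM. Most of that sum was Thy1, at 23.1, 28.85, 8.67 and 6.88 CPM, and Pdgfrb, at 5.42, 10.99, 9.18 and 7.59 CPM. Col1a1 had 0.629 to 1.98 CPM and Col1a2 0 to 0.447 CPM. The 7 primitive endoderm markers summed to 15.9 to 20.6 CPM, the 8 trophectoderm markers to 9.62 to 21.1 CPM and the 6 early germ layer markers to 31.6 to 40.2 CPM.

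In GENCODE M21 (GRCm38), Bnip3 (ENSMUSG00000078566) lies at chr7:138890836-138909519 on the minus strand. Egln3 (ENSMUSG00000035105) lies at chr12:54178981-54203860 on the minus strand. P4ha2 (ENSMUSG00000018906) lies at chr11:54100095-54131665 on the plus strand. Ddit4 (ENSMUSG00000020108) lies at chr10:59949669-59951834 on the minus strand. Promoters are shown for 5 genes on which the results turn: 3 of the 4 with the widest gap between the random shRNA libraries, the strongly expressed enzyme gene Pgk1, and Ddit4, which had another pattern. Each run is the 250 bases before a RefSeq transcription start in build GRCm38.p6, 5′ to 3′ on the gene's strand. Capitals mark ACGTG or GCGTG on either strand (CACGT and CACGC when read on the other strand); in CACGTG the matches of both strands overlap.
Bnip3, chr7:138909507-138909756, minus strand: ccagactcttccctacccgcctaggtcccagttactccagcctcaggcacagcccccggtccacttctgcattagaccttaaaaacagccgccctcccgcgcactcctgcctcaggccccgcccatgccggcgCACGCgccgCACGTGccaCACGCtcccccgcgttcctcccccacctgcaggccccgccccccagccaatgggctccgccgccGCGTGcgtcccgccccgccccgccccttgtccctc
Egln3, chr12:54203875-54204124, minus strand: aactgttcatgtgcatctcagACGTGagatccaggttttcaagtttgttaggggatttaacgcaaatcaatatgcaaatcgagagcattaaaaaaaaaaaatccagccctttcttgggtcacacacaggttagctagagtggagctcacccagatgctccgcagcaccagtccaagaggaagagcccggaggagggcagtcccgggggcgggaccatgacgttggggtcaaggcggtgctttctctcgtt
Aldoc, chr11:78322823-78323072, plus strand: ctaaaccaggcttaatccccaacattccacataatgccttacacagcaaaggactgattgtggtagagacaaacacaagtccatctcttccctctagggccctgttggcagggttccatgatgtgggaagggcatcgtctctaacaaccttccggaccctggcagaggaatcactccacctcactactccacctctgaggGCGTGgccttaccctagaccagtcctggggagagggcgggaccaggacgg
Pgk1, chrX:106186850-106187099, plus strand: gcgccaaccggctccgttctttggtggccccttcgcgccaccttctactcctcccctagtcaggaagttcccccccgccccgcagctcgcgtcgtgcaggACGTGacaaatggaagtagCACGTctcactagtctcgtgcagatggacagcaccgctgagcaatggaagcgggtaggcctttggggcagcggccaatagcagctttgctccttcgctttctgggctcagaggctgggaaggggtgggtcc
Ddit4, chr10:59951771-59952020, minus strand: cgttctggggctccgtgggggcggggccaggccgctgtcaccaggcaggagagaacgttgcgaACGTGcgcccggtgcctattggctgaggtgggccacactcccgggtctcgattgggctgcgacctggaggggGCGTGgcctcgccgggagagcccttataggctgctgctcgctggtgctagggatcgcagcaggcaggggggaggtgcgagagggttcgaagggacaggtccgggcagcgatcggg
The Bnip3 window held 5 matches, those of Pgk1 and Ddit4 2 each, and those of Egln3 and Aldoc 1 each. RefSeq windows were matched for 32 of the 34 genes (48 windows, as a gene can have several starts), not for Slc2a3 and Ndrg1. At least 1 match lay in 37 of these 48 windows (77.1%), against 38.6% of all 32851 windows of that length and 65.8% of the 7115 windows at least as rich in G and C as the median member window. ACGTG alone was in 47.9% of member windows and 16.6% of all windows. Member windows had a median of 62.8% G and C, against 52.4% over all windows, and ACGTG was in 23.0% of those 7115 windows. The full CACGTG, which MYC-family factors also bind, was in 6.25% of member windows and 6.02% of all windows. Most of these genes were listed because they are known hypoxia targets, so the motif shares are a description, and a match is not a measured binding site.

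The main pattern among these genes was a gap between the 2 control libraries. Random shRNA replicate 2 was above replicate 1 in 29 of 33 members, against 8158 of the 15735 genes tested. It was past 1.5-fold in 18 members, and over all features tested 9.96% lay past 1.5-fold in that direction. No member was past 1.5-fold the other way, where 10.4% of features were. All features include MERVL copies, whereas the members are genes. Of the 15735 genes alone, 1627 were past 1.5-fold with replicate 2 higher and 1115 with replicate 1 higher. Genes were counted past 1.5-fold on log2(CPM + 1), which shrinks the gaps of genes at low CPM; folds printed for single genes are plain ratios of CPM. On the log2 scale the median gap, replicate 1 minus replicate 2, was -0.62 over the members and -0.02 over all 15735 genes tested. With 1 library on each side this is a difference between those libraries, with no test. The MERVL shRNA libraries differed by less over all features, with 3.78% past 1.5-fold between them against 20.4% between the random shRNA libraries. No member was past it between the MERVL shRNA libraries, which is near that share. Of the 15735 genes alone, 374 were past it between these libraries. Between the MERVL shRNA libraries the median gap, replicate 1 minus replicate 2, was -0.15 over the members and -0.007 over all genes tested. The median over the members was thus negative in both pairs, and smaller in size in the MERVL shRNA pair.

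Both MERVL shRNA libraries lay between the random shRNA libraries in 22 of 33 members (66.7%), against 24.4% of all features tested. In the same 22 members random shRNA replicate 1 was the lowest and replicate 2 the highest of the libraries, an order found in 12% of all features. Over the 18 members past 1.5-fold, the MERVL shRNA mean lay a median of 51.7% of the way from random shRNA replicate 1 to replicate 2, with a range from -32.8% for Ddit4, which lay below both, to 87.7%. As a share of all estimated counts, the 34 genes took 2.08% (95% Wilson interval 2.07% to 2.09%) in random shRNA replicate 1 and 2.74% (2.73% to 2.75%) in replicate 2. The shares were 2.30% (2.29% to 2.31%) and 2.49% (2.48% to 2.50%) with MERVL shRNA; these intervals cover counting error only. The 2-cell-like markers and MERVL had the opposite order between the random shRNA libraries, and their part in the gap, like that of depth, was not tested. In bulk RNA, fewer cells of a type and less RNA per cell cannot be told apart.

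**Figure D1:**
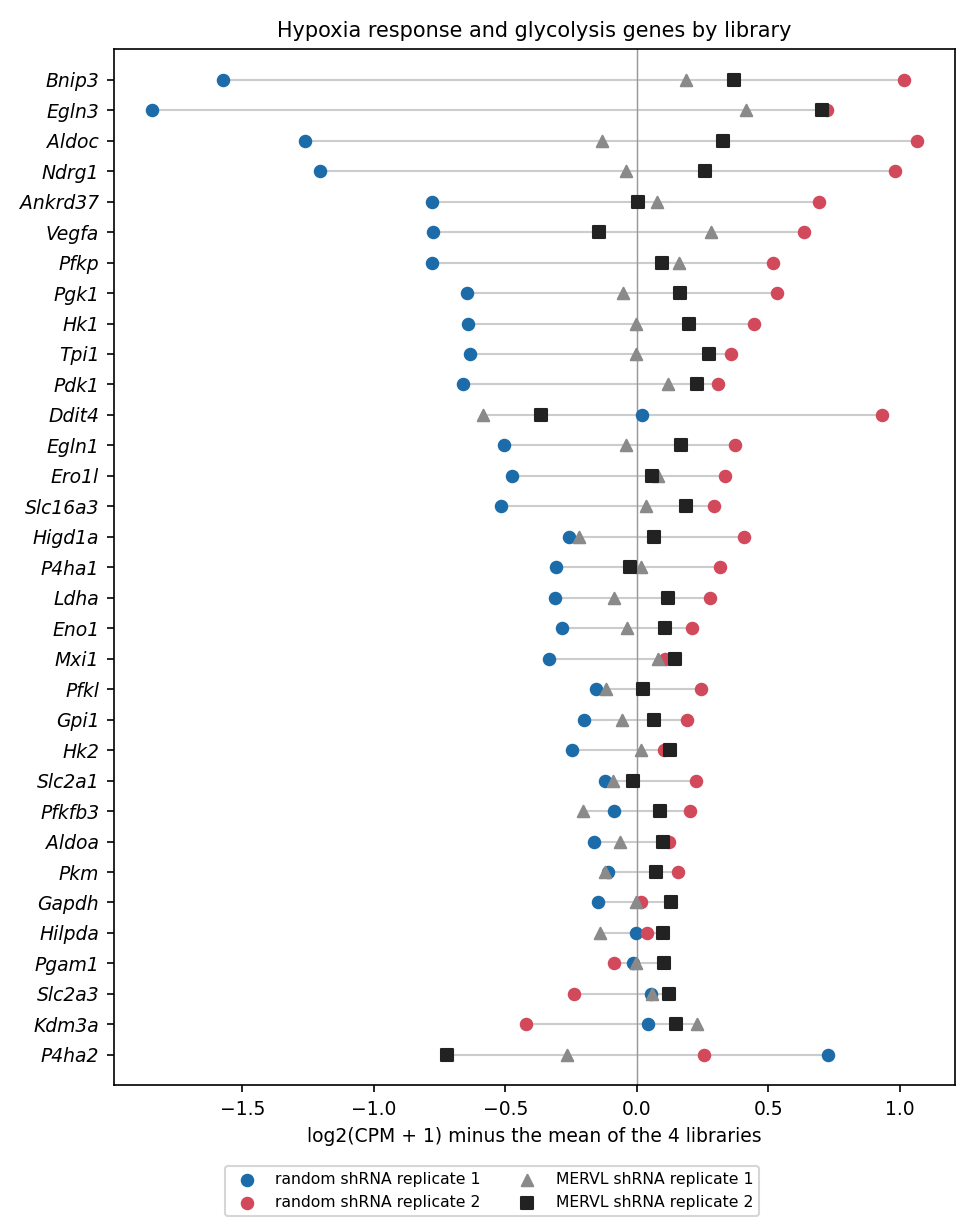
Level of the 33 tested genes in each library, as log2(CPM + 1) minus the mean of the libraries for that gene, sorted by the gap between the random shRNA libraries. Each point is 1 library and the grey line is their range; in 22 genes the MERVL shRNA points lie between random shRNA replicate 1 on the left and replicate 2 on the right.

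**Figure D2:**
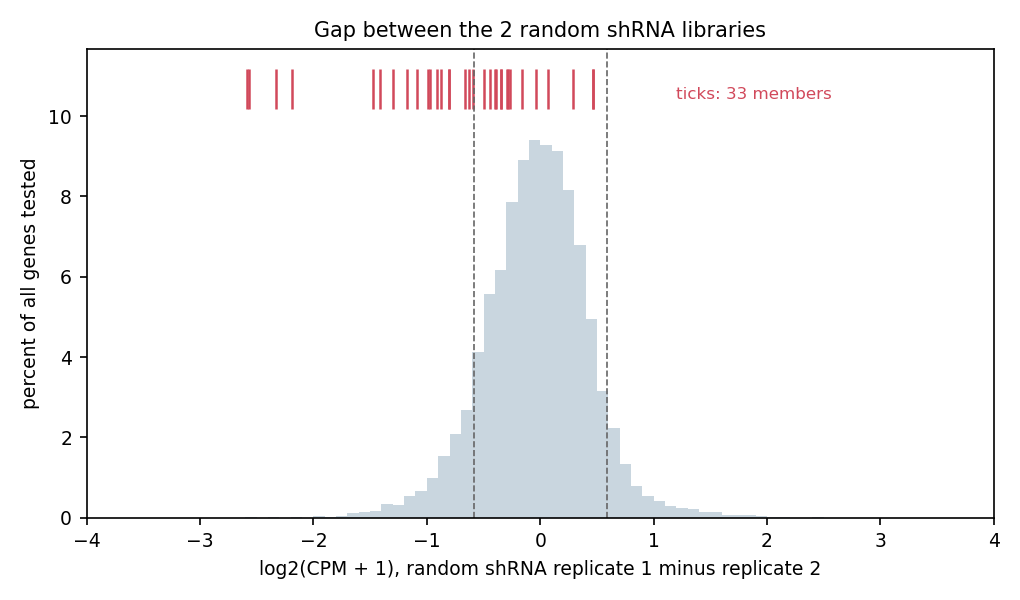
Distribution of the gap between the random shRNA libraries, log2(CPM + 1) in replicate 1 minus replicate 2, over 15735 genes tested, as percent of genes per bin of 0.1. Red ticks are the 33 members, and dashed lines mark 1.5-fold; 18 ticks lie left of the left line and 0 right of the right line.

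Among the oxygen sensors, Egln3, a prolyl hydroxylase that is itself a hypoxia target, had 7.08 and 46.9 CPM with random shRNA and 37.7 and 46.3 CPM with MERVL shRNA. Random shRNA replicate 1 alone was low, and the other libraries lay close together. Replicate 2 was 6.62-fold above replicate 1, and 0.0254% of all genes tested had a more negative gap. Egln1, the main oxygen sensor of the HIF pathway, had 20.3 and 38.1 CPM with random shRNA and 28.4 and 32.9 CPM with MERVL shRNA, so the groups overlapped. Per kilobase of exon, Egln1 was 2.12 times as high as Egln3 in random shRNA replicate 1, while Egln3 was 1.66 times as high as Egln1 in random shRNA replicate 2 and 1.79 and 1.90 times as high with MERVL shRNA.

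The 2 glucose transporter genes differed in their order. Slc2a1, the transporter GLUT1, had 759.5 and 965.5 CPM with random shRNA and 776.1 and 817.9 CPM with MERVL shRNA, a narrow spread with replicate 2 of the random pair on top. Slc2a3, the high-affinity transporter GLUT3, had 1587 and 1296 CPM with random shRNA and 1591 and 1664 CPM with MERVL shRNA. Here random shRNA replicate 2 was the lowest library, the groups did not overlap, and the log2 fold change was 0.17 ± 0.18 (SE), with an adjusted p of 0.729 in the edgeR quasi-likelihood test. Per kilobase the 2 transporters were nearly equal in random shRNA replicate 1 and both MERVL shRNA libraries, with Slc2a1 0.989, 1.01 and 1.02 times Slc2a3, and in random shRNA replicate 2 Slc2a1 was 1.54 times Slc2a3.

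Hexokinases trap glucose in the cell as glucose 6-phosphate. Hk1 had 47.3 and 102 CPM with random shRNA and 74.3 and 85.6 CPM with MERVL shRNA. Hk2, the inducible isozyme, had 87.4 and 112 CPM with random shRNA and 105 and 114 CPM with MERVL shRNA. In both genes random shRNA replicate 1 was lowest, by 2.15-fold and 1.28-fold below replicate 2. Hk2 was the higher per kilobase in each library, from 1.57 times Hk1 in random shRNA replicate 2 to 2.64 times in replicate 1.

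Phosphofructokinase commits sugar to glycolysis, and its platelet-type subunit gene Pfkp had 202 and 498.5 CPM with random shRNA and 388 and 372 CPM with MERVL shRNA. The liver-type subunit gene Pfkl had 289 and 382 CPM with random shRNA and 297 and 327 CPM with MERVL shRNA. Random shRNA replicate 1 was thus far below the rest for Pfkp (2.47-fold below replicate 2) and close to MERVL shRNA replicate 1 for Pfkl. Pfkl over Pfkp per kilobase was 2.88 in random shRNA replicate 1 and between 1.54 and 1.77 in the other libraries. Pfkp overlaps the gene Pitrm1 on the other strand (111 CPM against 365 CPM for Pfkp, means over libraries), and the strand setting of the counting was not given in the sources used here. Pfkfb3, which makes the activator fructose 2,6-bisphosphate, had 16.9 and 20.9 CPM with random shRNA and 15.5 and 19.2 CPM with MERVL shRNA.

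The aldolases split fructose 1,6-bisphosphate. Aldoc, the isozyme typical of brain, had 10.2 and 55.3 CPM with random shRNA and 23.6 and 32.8 CPM with MERVL shRNA. The ubiquitous Aldoa had 1971 and 2402 CPM with random shRNA and 2109 and 2361 CPM with MERVL shRNA. The random shRNA libraries thus differed 5.41-fold for the minor isozyme and 1.22-fold for the major one. Aldoa was 216 times Aldoc per kilobase in random shRNA replicate 1 and 48.7 times in replicate 2, with 100.3 and 80.7 times with MERVL shRNA. Tpi1, triosephosphate isomerase, had 421 and 838 CPM with random shRNA and 652 and 791 CPM with MERVL shRNA. Gpi1, glucose 6-phosphate isomerase, had 438 and 575 CPM with random shRNA and 485 and 527.5 CPM with MERVL shRNA.

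In the lower, energy-yielding steps, Pgk1 (phosphoglycerate kinase, X chromosome) varied most. It had 774 and 1751 CPM with random shRNA and 1168 and 1356 CPM with MERVL shRNA, a 2.26-fold gap between the random shRNA libraries with MERVL shRNA in the middle. Eno1, an enolase, had 2506 and 3532 CPM with random shRNA and 2975 and 3292 CPM with MERVL shRNA. Gapdh, often used as a reference gene, had 4375 and 4904 CPM with random shRNA and 4834 and 5303 CPM with MERVL shRNA, and Pkm, pyruvate kinase, ran from 3833 to 4642 CPM. Pgam1, phosphoglycerate mutase, had 934 and 889 CPM with random shRNA and 943 and 1014 CPM with MERVL shRNA, so its groups did not overlap although the libraries spanned little. Its log2 fold change was 0.10 ± 0.15 (SE), with an adjusted p of 0.825 in edgeR. Per kilobase of exon and averaged over libraries, Gapdh was highest at 1174 CPM, followed by Pkm at 835, Aldoa at 759, Eno1 at 572, Pgk1 at 563, Ldha at 548 and Pgam1 at 477 CPM. Many glycolysis genes have near-identical pseudogenes or copies, and the levels of such genes are uncertain. The estimated counts of Gapdh, Pkm, Aldoa, Eno1, Pgk1 and Pgam1, and also of Pfkl, Pfkp, Mxi1 and Ankrd37, were not whole in any library; the source of the fractions was not tested. Eno1b, a copy of Eno1, had 530.3 and 722 CPM with random shRNA and 633.5 and 710.5 CPM with MERVL shRNA.

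At the fate of pyruvate, all 3 genes had random shRNA replicate 1 lowest and replicate 2 highest. Ldha, which turns pyruvate into lactate, had 1445 and 2174 CPM with random shRNA and 1691 and 1946 CPM with MERVL shRNA. The lactate exporter gene Slc16a3 (MCT4) had 117 and 205.5 CPM with random shRNA and 172 and 191 CPM with MERVL shRNA. Pdk1, a kinase that shuts the pyruvate dehydrogenase gate to mitochondria, had 169.5 and 333 CPM with random shRNA and 291.5 and 314 CPM with MERVL shRNA. For Pdk1 and Slc16a3 the MERVL shRNA libraries were nearer to random shRNA replicate 2.

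Bnip3, a mitochondrial receptor for mitophagy and a classical HIF target whose promoter is shown above, had the widest gap on the log2(CPM + 1) scale. It had 44.1 and 270.5 CPM with random shRNA, a 6.13-fold difference, and 152 and 172 CPM with MERVL shRNA. The MERVL shRNA libraries were near each other and far from both controls. Higd1a, a small inner membrane protein gene, had 36.0 and 57.8 CPM with random shRNA and 37.0 and 45.3 CPM with MERVL shRNA.

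Among the other hypoxia targets, Ndrg1, which encodes a differentiation-related protein, had 5.23 and 27.3 CPM with random shRNA and 12.9 and 16.2 CPM with MERVL shRNA. Ankrd37, an ankyrin repeat gene, had 4.53 and 14.3 CPM with random shRNA and 8.99 and 8.51 CPM with MERVL shRNA. In both, as in Bnip3, the MERVL shRNA libraries lay between the random ones, at a lower level. Ankrd37 overlaps Ufsp2 on the other strand (27.6 CPM against 9.09 CPM for Ankrd37, means over libraries). Vegfa, the vessel growth factor, had 26.8 and 72.9 CPM with random shRNA and 56.9 and 42.1 CPM with MERVL shRNA. Hilpda, a lipid droplet protein gene, had 9.51 and 9.81 CPM with random shRNA and 8.55 and 10.3 CPM with MERVL shRNA, a span in which the random shRNA libraries hardly differed.

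Collagen prolyl hydroxylase subunits gave opposite orders. P4ha1 had 40.3 and 62.7 CPM with random shRNA and 50.7 and 49.3 CPM with MERVL shRNA, while Ero1l, a disulfide-forming oxidase of the endoplasmic reticulum, had 72.0 and 127 CPM with random shRNA and 106 and 104 CPM with MERVL shRNA. P4ha2 had 43.1 and 30.9 CPM with random shRNA and 21.2 and 15.2 CPM with MERVL shRNA, the reverse of P4ha1 in the random pair, and below both controls with MERVL shRNA. Its means were 37.0 ± 8.68 CPM (SD, n = 2) and 18.2 ± 4.24 CPM (SD, n = 2), which gives a log2 fold change of -1.03 ± 0.24 (SE), with an adjusted p of 0.329 in edgeR. P4ha1 over P4ha2 per kilobase was 1.42 and 3.08 with random shRNA and 3.63 and 4.92 with MERVL shRNA.

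Ddit4 (REDD1, an inhibitor of mTORC1 induced by hypoxia and other stresses) was the other gene below both controls. It had 35.1 and 67.0 CPM with random shRNA and 22.8 and 26.7 CPM with MERVL shRNA, so the groups did not overlap although the random pair differed 1.91-fold. The means were 51.1 ± 22.5 CPM (SD, n = 2) and 24.7 ± 2.77 CPM (SD, n = 2), which gives a log2 fold change of -1.04 ± 0.30 (SE), with an adjusted p of 0.329 in edgeR. Kdm3a, an oxygen-dependent histone H3K9 demethylase, had 157 and 114 CPM with random shRNA and 179 and 169 CPM with MERVL shRNA, with random shRNA replicate 2 the lowest library. Its log2 fold change was 0.36 ± 0.19 (SE), with an adjusted p of 0.455 in edgeR. Mxi1, a MAX partner that opposes MYC, had 42.8 and 58.4 CPM with random shRNA and 57.3 and 60.0 CPM with MERVL shRNA.

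In the comparison of MERVL shRNA with random shRNA over all libraries, 0 of 33 members passed the edgeR test at an adjusted p of 0.05, where 0.00612% of the 16353 features did. At an unadjusted edgeR p under 0.05, 8.92% of features were lower and 13.6% passed in either direction. Of the 15735 genes alone, 999 were lower and 766 higher. There were 2 such members, P4ha2 and Ddit4, both lower. DESeq2 called the same pair lower, against 0.96% of features lower and 1.36% in either direction, and limma-voom called 0 members and 0% of features. The groups did not overlap in 5 members (15.2%): Slc2a3, Pgam1 and Kdm3a were higher and P4ha2 and Ddit4 lower with MERVL shRNA, against 46.2% of all features (22.1% higher and 24.1% lower). The median log2 fold change was 0.03 over the members and 0.004 over all genes tested, with 18 members positive and 15 negative. The standard errors ranged from 0.15 for Pgam1, whose random shRNA libraries were close, to 0.72 for Egln3 (log2 fold change 0.65 ± 0.72, adjusted p = 0.751).

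What the comparison showed depended on which random shRNA library was kept. Without random shRNA replicate 2, edgeR called 17 members higher and 2 lower with MERVL shRNA, against 14.9% and 17.4% of all features. Without random shRNA replicate 1, it called 1 higher and 11 lower, against 6.77% and 7.28%. In these fits the lone random library is assumed to vary like the MERVL shRNA pair, so the tests compare with that library only. Bnip3 had a log2 fold change of 1.89 ± 0.14 (SE), with an adjusted p of 2.263e-41 in edgeR without replicate 2 and -0.73 ± 0.12 (adjusted p = 1.573e-07) without replicate 1. Aldoc turned from 1.48 ± 0.17 to -0.97 ± 0.13, Ndrg1 from 1.49 ± 0.22 to -0.91 ± 0.15, Ankrd37 from 0.97 ± 0.25 to -0.71 ± 0.19 and Vegfa from 0.90 ± 0.13 to -0.55 ± 0.12. Pfkp, Pgk1 and Hk1 also passed in both directions, at 0.93, 0.72 and 0.77 without replicate 2 and at -0.39, -0.47 and -0.34 without replicate 1. Egln3 stood at 2.58 ± 0.17 without replicate 2 and at -0.16 ± 0.13 without replicate 1. The difference between these fits was not tested. P4ha2 kept 1 direction, at -1.22 ± 0.14 without replicate 2 and -0.75 ± 0.15 without replicate 1. So did Ddit4, at -0.49 ± 0.14 and -1.44 ± 0.13. In both genes the MERVL shRNA libraries lay below both random shRNA libraries, so leaving out either control could not change the direction. Where they lay between the random shRNA libraries, as in Bnip3, the change of direction likewise followed from that order. Kdm3a was called higher without replicate 1 (0.62 ± 0.13) and not without replicate 2 (0.16 ± 0.12). With MERVL shRNA replicate 1 or 2 left out, 0 members were called, against 0.0116% and 0.0115% of features.

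**Figure D3:**
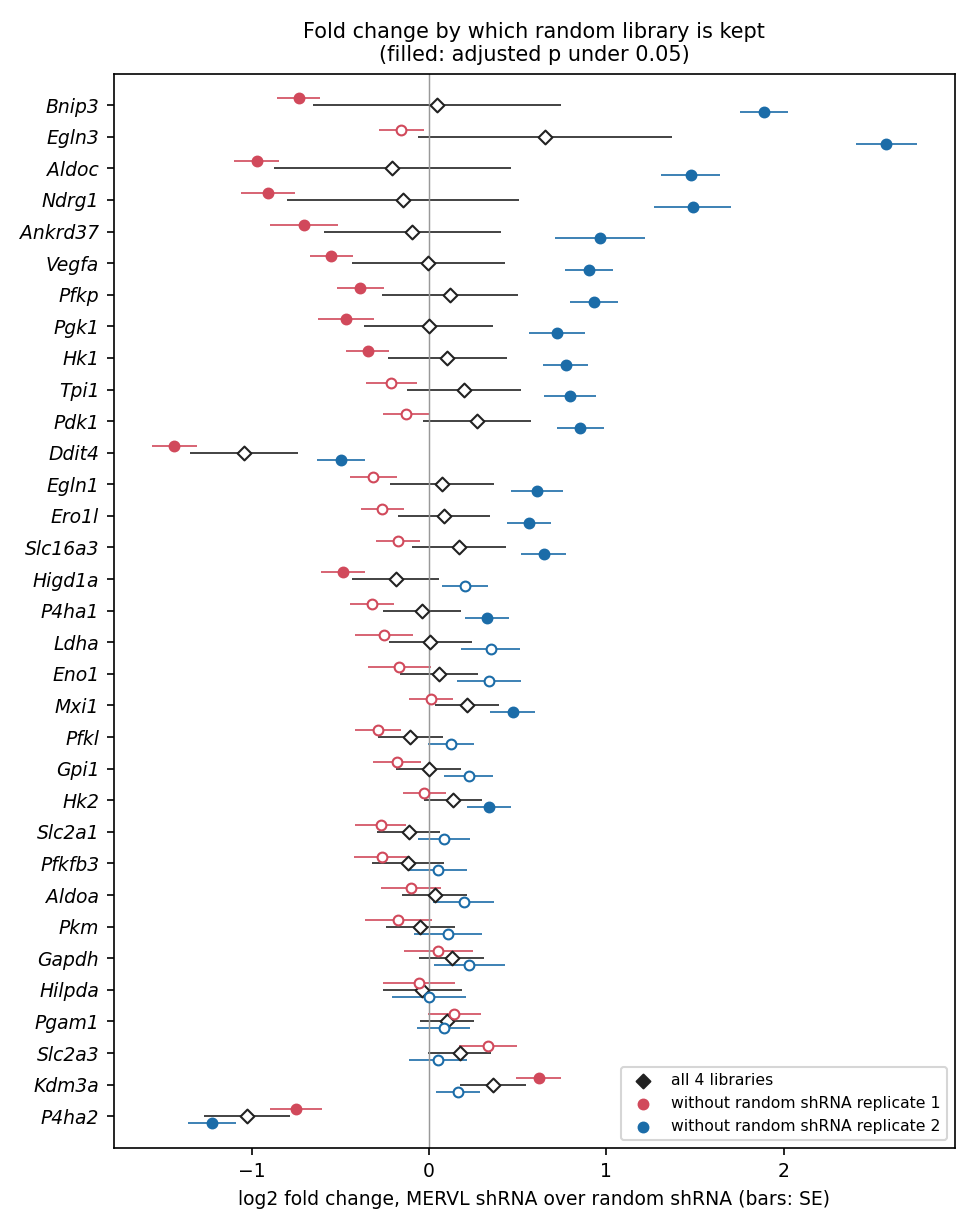
Log2 fold change of MERVL shRNA over random shRNA for the 33 tested genes, with all libraries (diamonds), without random shRNA replicate 1 (red) and without random shRNA replicate 2 (blue). Bars are SE and filled symbols have an adjusted p under 0.05. Bnip3 lies at -0.73 and 1.89 when replicate 1 or 2 is left out. P4ha2 and Ddit4 stay below 0, which follows from their MERVL shRNA libraries lying below both random shRNA libraries.

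As a set, HIF subunits and regulators outside the member list did not share the gap between the random shRNA libraries in their mRNA. The sensors Egln1 and Egln3, which are members, had it, with random shRNA replicate 2 above replicate 1 by 1.88-fold and 6.62-fold. Among 18 HIF subunits and regulators, 1 had random shRNA replicate 2 past 1.5-fold over replicate 1 and 2 the reverse. These counts are near the shares of 9.96% and 10.4% over all features, and the median gap of the list was 0.19. Hif1a, the inducible subunit, had 132 and 90.5 CPM with random shRNA and 105 and 104 CPM with MERVL shRNA, so it was lowest in random shRNA replicate 2, the library that was highest in 25 of the 33 members. Epas1 (HIF2 alpha) had 26.6 and 22.4 CPM with random shRNA and 30.7 and 30.9 CPM with MERVL shRNA, and Arnt had 89.8, 83.1, 93.0 and 102 CPM in the same order. Hif3a, whose protein can oppose the others, was the 1 gene past 1.5-fold with the members, at 5.93 and 13.4 CPM with random shRNA and 6.35 and 6.88 CPM with MERVL shRNA. Egln2, a sensor that is not a typical hypoxia target, had 65.9, 49.2, 64.9 and 67.8 CPM. None of the 18 passed edgeR between groups. Against 8.92% of all features lower at an unadjusted edgeR p under 0.05, 2 of the 18 were lower. Vhl, the ubiquitin ligase subunit that destroys HIF alpha, was 1 of them, at 39.3 and 29.9 CPM with random shRNA and 22.4 and 26.5 CPM with MERVL shRNA (log2 fold change -0.50 ± 0.19, adjusted p = 0.346). The other was the transcriptional coregulator gene Cited4, at -1.22 ± 0.45 (adjusted p = 0.340), and Siah1a and Tceb1 followed at 0.39 ± 0.17 and -0.31 ± 0.14.

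Hypoxia targets outside the 34 genes shared the gap. Of 29 tested, 12 had random shRNA replicate 2 past 1.5-fold over replicate 1 and 0 the reverse, against 9.96% and 10.4% of all features. Their median gap was -0.46. Bhlhe40, a transcriptional repressor, had 6.89 and 26.0 CPM with random shRNA and 17.8 and 20.1 CPM with MERVL shRNA. The secreted glycoprotein gene Stc2 had 3.64, 14.3, 11.7 and 14.4 CPM in that order, and Fam162a, a mitochondrial protein gene, 48.2, 122, 81.0 and 90.2 CPM. These 3 were chosen after their values were seen. Car9, the carbonic anhydrase often taken as a hypoxia reporter, was low throughout, at 0.510, 2.18, 1.32 and 1.14 CPM. Of this list 0 passed edgeR between groups, and the smallest p-values belonged to the histone demethylase genes Kdm4c (0.61 ± 0.16, adjusted p = 0.329) and Kdm4b (0.49 ± 0.19, adjusted p = 0.346), followed by the adenylate kinase gene Ak4 (0.25 ± 0.14) and the transferrin receptor gene Tfrc (0.37 ± 0.22).

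Other glycolysis isozymes and transporters had 6 of 20 tested genes past 1.5-fold with random shRNA replicate 2 higher and 0 the reverse. Over all features the shares were 9.96% and 10.4%. Ldhb, the lactate dehydrogenase subunit typical of heart, had 191 and 452 CPM with random shRNA and 337 and 360 CPM with MERVL shRNA. In this list 0 genes passed between groups; the smallest p belonged to the muscle enolase gene Eno3, at -0.67 ± 0.20 (edgeR adjusted p = 0.329), and Adpgk (-0.24 ± 0.14) and Pklr (-0.86 ± 0.50) were also among the smallest. Regulators of glycolysis went both ways, with 1 of 14 past 1.5-fold with replicate 2 higher and 2 the reverse. These counts are near the shares of 9.96% and 10.4% over all features. Myc, an activator of glycolytic genes, was 1 of those higher in replicate 1. It had 63.6 and 28.2 CPM with random shRNA and 48.2 and 53.2 CPM with MERVL shRNA. None of these regulators passed between groups; the glucose-sensing factor genes Mlxipl and Mlxip had -1.11 ± 0.39 and -0.40 ± 0.14 (edgeR adjusted p = 0.337 and 0.339), the arrestin-domain gene Arrdc4 -0.33 ± 0.13, and Mlx 0.27 ± 0.14.

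Other routes of carbon were compared in the same way. Of 20 tricarboxylic acid cycle genes and 9 pentose phosphate genes tested, 0 were past 1.5-fold between the random shRNA libraries, against 20.4% of all features in either direction. Their median gaps were -0.12 and 0.07. Of 14 genes of pyruvate entry, 3 were past 1.5-fold with random shRNA replicate 2 higher (9.96% of all features) and 0 the reverse (10.4%). These were the kinase genes Pdk2 and Pdk4 and the carrier gene Mpc1, and the median gap of the list was -0.14. Between groups 0 genes of these lists passed edgeR. Pdha1, the catalytic subunit gene of pyruvate dehydrogenase, had 196 and 181 CPM with random shRNA and 108 and 106 CPM with MERVL shRNA (log2 fold change -0.82 ± 0.14, adjusted p = 0.284). Cs, citrate synthase, had 276 and 202 CPM with random shRNA and 125.5 and 127 CPM with MERVL shRNA (-0.92 ± 0.18, adjusted p = 0.305). Sdhd, a subunit gene of succinate dehydrogenase, had 151 and 182 CPM against 108 and 104 CPM (-0.65 ± 0.15, adjusted p = 0.329). In these 3 genes, named for their small p, the groups did not overlap, as in 46.2% of all features. The rest with the smallest p were Sdhb (0.43 ± 0.17) and Mdh2 (-0.32 ± 0.17) of the cycle, Pdpr (0.46 ± 0.19), Pdhb (0.33 ± 0.14) and Mpc1 (-0.47 ± 0.30) of pyruvate entry, and H6pd (0.48 ± 0.15), Tkt (-0.42 ± 0.15), Prps2 (-0.44 ± 0.17) and Prps1 (-0.29 ± 0.15) of the pentose phosphate pathway.

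**Figure D4:**
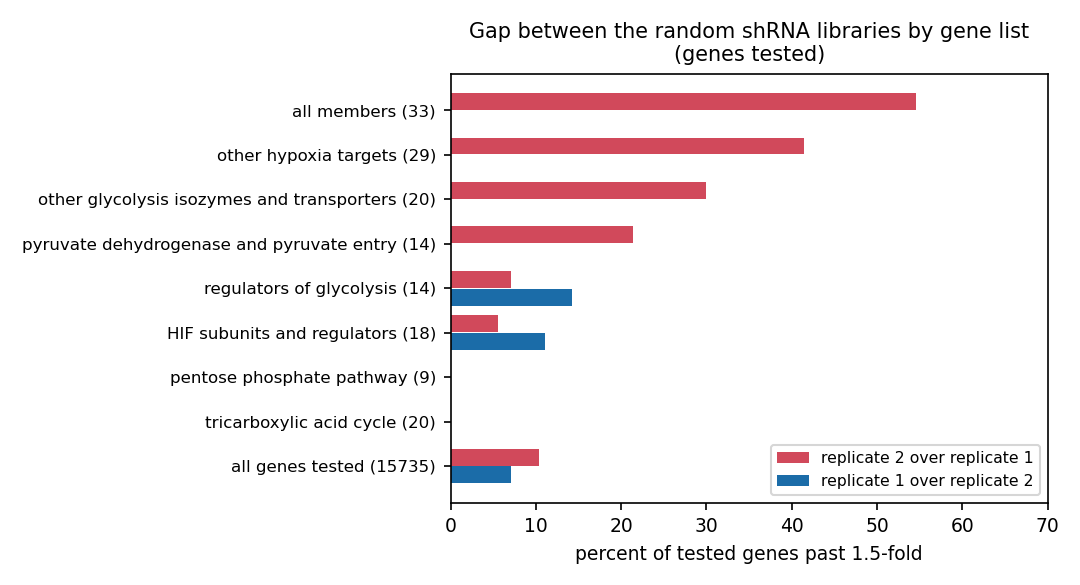
Percent of tested genes past 1.5-fold between the random shRNA libraries, by gene list, with the number of genes tested in brackets. Red bars are genes higher in replicate 2 and blue bars genes higher in replicate 1; 18 of 33 members and 12 of 29 other hypoxia targets were higher in replicate 2, and 0 of 20 tricarboxylic acid cycle genes.

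The normalized scores that the authors deposited did not show the gap. In them the median gap between the random shRNA libraries was 0 over the 33 members, the largest ratio was 1.12-fold, for Ddit4, and 0 members were past 1.5-fold, where 0.00561% of features were. Bnip3 had scores of 1721 and 1672 with random shRNA and of 1968 and 2382 with MERVL shRNA. Egln3 had 297 and 272 with random shRNA and 486 and 639 with MERVL shRNA, although by estimated counts random shRNA replicate 2 was level with MERVL shRNA. The steps behind the scores were not given in the sources used here. With limma on log2(score + 1), Egln3 (0.97 ± 0.17, adjusted p = 0.0490) and Kdm3a (0.39 ± 0.06, adjusted p = 0.0416) were called higher and Ddit4 lower (-1.05 ± 0.13, adjusted p = 0.0360). That is 3 of 33 members (9.09%), against 19.6% of all features with a score. The scores of the random shRNA libraries were nearly equal, with a median ratio of 1.01 over the members. These SEs and p-values thus leave out the spread between the controls that the estimated counts show. By estimated counts Egln3 was at 0.65 ± 0.72 (edgeR adjusted p = 0.751). P4ha2 had scores of 499 and 546 with random shRNA and 309 and 220 with MERVL shRNA.

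**Figure D5:**
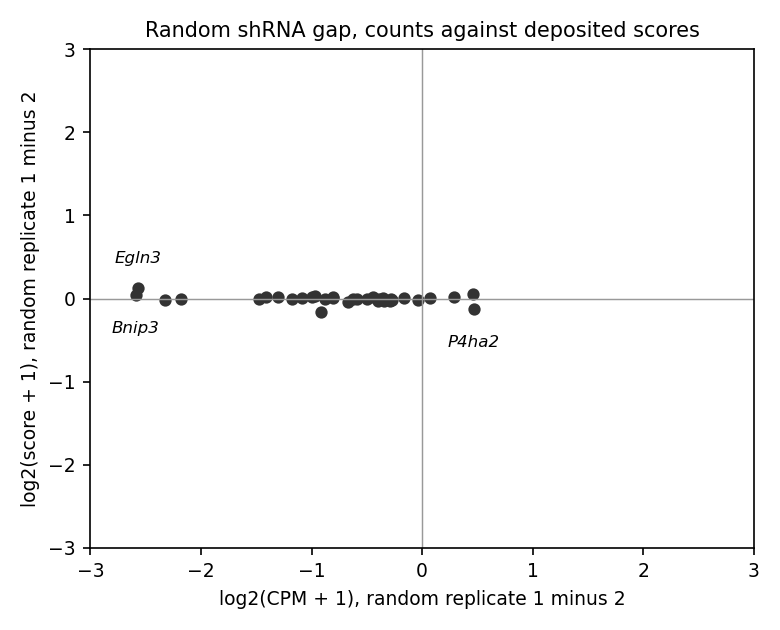
Gap between the random shRNA libraries for the 33 tested genes, replicate 1 minus replicate 2, as log2(CPM + 1) from estimated counts (x axis) and as log2(score + 1) from the deposited scores (y axis), both axes to the same scale. Points spread along x, with Bnip3 at -2.59 and P4ha2 at 0.47, and lie near 0 on y.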

How the data were processed

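RNA-seq of 4 libraries was used, 2 per group, with groups and replicate numbers from the sample titles. Trim Galore, HISAT2 and build mm10 are named in the submitters' processing notes; versions, counting program and strand setting were not given in the sources used here. The authors deposited estimated counts for 45773 features (43496 genes and 2277 MERVL copies), of which 19.1% to 20.8% per library were not whole, and a rounded normalized score for 17823 features. All columns were mapped to a sample.

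Estimated counts were rounded and all features tested together with edgeR 4.0.16 (R 4.3.3): TMM scaling, filterByExpr, quasi-likelihood F test without a replicate term, 2-sided, Benjamini-Hochberg adjustment over all 16353 features tested, threshold 0.05. SEs came from the F statistic. CPM is TMM-scaled, and levels per kilobase use the union of GENCODE M21 exons (GRCm38, also called mm10). Gaps are differences of log2(CPM + 1), counted past 1.5-fold, and shares carry 95% Wilson intervals. Alternatives were other scalings and filters, DESeq2 1.42.0, limma 3.58.1 (voom, and log2(score + 1) for a mean score of at least 1), a robust prior, genes only, a replicate block and leaving out each library. Rpia had no matching row. Markers and pathway lists were described by counts, and listed with the 4 smallest p each, of which 1 is not reported here. Members, lists and the rule for named genes (all members; of each list up to 4 with the smallest p; Hif1a, Epas1, Arnt, Vhl and Egln2) were chosen with earlier results of these data known.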

Additional observations from a re-analysis of the deposited data

How the results depend on the processing

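The replicate numbers could not be shown to pair libraries: the labels say nothing of what same-numbered libraries share, and over features the deviations of same-numbered libraries from their group means had a Pearson r of 0.22. With a replicate block 2 members (P4ha2 and Ddit4) and 2 genes of the other lists were called, all lower (4.51% of all features were called). Members called numbered 3 with no filter (Egln3 higher, P4ha2 and Ddit4 lower), where 4.75% of all features were called. They numbered 2 in DESeq2 (1.36% of all features) and 3 from the deposited scores (19.6%). Genes of the other lists called in these settings numbered 4, 3 and 24. Both counts were 0 with all libraries and the edgeR settings given above. RLE, upper quartile or library total scaling, a minimum of 1 CPM, limma-voom, a robust prior and genes only also gave 0 and 0. Leaving out a library gave 0 to 19 members called, 0 to 46 genes of the other lists, and a median log2 fold change of -0.26 to 0.34, the extremes coming from leaving out a random shRNA library; the number of members whose groups did not overlap was then 7 to 31, where 2 libraries face 1 and 62.4% to 85.4% of all features did not overlap. It was 3 with library totals (46.4% of all features) and 20 of 33 (60.6%) from the scores, below the 74.6% over all features. The median gap between the random shRNA libraries lay between -0.67 and -0.59 under all scalings, filters and pseudocounts tried, and at 0 from the scores.

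Chosen after seeing the data, a bound of 2-fold gave 9 members (2.41% of all features) with random shRNA replicate 2 higher and a bound of 1.25-fold gave 24 (23.4%), in place of 18 (9.96%). From the scores this count was 0, against 0.00561% of all features. Both MERVL shRNA libraries then lay between the random ones in 0 members and in 0% of all features, so these counts say nothing particular to the members. Under other scalings and filters the counts were 17 or 18 (6.22% to 11.2% of all features) and 22 to 24 (18% to 24.7%).

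Of the members, 26 changed sign of their log2 fold change at least once, in 73 fits, of which 9 passed the threshold, all without a random shRNA library. With RLE scaling, Gpi1 was at 0.0053, Pgk1 at 0.0061, Vegfa at 0.003. With no filter, Gpi1 was at 0.0202, Pgk1 at 0.0207, Vegfa at 0.0184. With a minimum of 1 CPM in 2 libraries, Gpi1 was at 0.0047, Pgk1 at 0.003. In DESeq2, Gpi1 was at 0.0054, Pgk1 at 0.0059. In limma-voom, Gpi1 was at 0.0084, Aldoc at 0.30, Pgk1 at 0.10, P4ha1 at 0.0025, Vegfa at 0.18, Ankrd37 at 0.20, Ndrg1 at 0.37. With a replicate block, Gpi1 was at 0.0114, Aldoc at 0.18, Pgk1 at 0.11, Vegfa at 0.14, Ankrd37 at 0.0886, Ndrg1 at 0.21. With library totals, Aldoa was at -0.0283, Eno1 at -0.0066, Ldha at -0.0537, Bnip3 at -0.0201. From the scores, Aldoa was at -0.0053, Aldoc at 0.0271, Pgk1 at 0.006, Ldha at -0.0295, Vegfa at 0.0205, Ndrg1 at 0.0767. With upper quartile scaling, Ldha was at -0.0101. With genes only, Ldha was at -0.0039. None of these passed, and the cause of these changes was not tested. With a library left out the log2 fold changes ran as follows: Egln1 -0.31 to 0.61, Egln3 -0.16 to 2.58, Slc2a1 -0.27 to 0.0852, Hk1 -0.34 to 0.77, Hk2 -0.0265 to 0.34, Gpi1 -0.18 to 0.22, Pfkl -0.29 to 0.12, Pfkp -0.39 to 0.93, Pfkfb3 -0.27 to 0.0544, Aldoa -0.0991 to 0.20, Aldoc -0.97 to 1.48, Tpi1 -0.21 to 0.79, Pgk1 -0.47 to 0.72, Eno1 -0.17 to 0.34, Pkm -0.17 to 0.11, Ldha -0.25 to 0.35, Slc16a3 -0.18 to 0.65, Pdk1 -0.13 to 0.85, Bnip3 -0.73 to 1.89, Higd1a -0.49 to 0.20, P4ha1 -0.32 to 0.33, Ero1l -0.26 to 0.56, Vegfa -0.55 to 0.90, Ankrd37 -0.71 to 0.97, Ndrg1 -0.91 to 1.49, Hilpda -0.16 to 0.12. With 2 libraries a group, depth was a limit for Adm, with 1 to 6 estimated counts per library.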
